A study of Homo sapiens with 28 samples.

Results

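The peaks described here are those of SMC3 in GP5d cells, called by ChIP-seq after a control siRNA and after an siRNA against RAD21. All rows of both deposited lists were taken, 38799 control and 12548 siRAD21 peaks, which make 51347 of the 393268 peaks in the 22 lists of the series. GP5d is an established human colon adenocarcinoma line. The series mapped chromatin proteins and 1 histone mark in it, each once under either siRNA. Control cells received a neutral siRNA that targets no gene, the others an siRNA to RAD21, both at 50 nM, and both were harvested after 72 hours. Both SMC3 libraries were made with the same antibody, and each was called against a rabbit IgG library of the same siRNA. The title and description put the siRAD21 library in its group, while its siRNA tag reads RAD39, a different name. There was 1 library a side, so no test between the siRNAs was possible and the intervals below (exact Clopper-Pearson, 95%) cover counting error only.

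SMC3 is an ATPase subunit of cohesin, the ring-shaped complex that holds sister chromatids together and extrudes loops of DNA. RAD21, the kleisin, closes the ring by bridging the SMC3 and SMC1 heads, NIPBL loads the ring and stimulates extrusion, and DNA-bound CTCF halts it, so that cohesin peaks at CTCF sites. Cohesin is also found away from CTCF, at active promoters and enhancers, where H3K4 monomethylation and transcription factors lie. HNF4A and KLF5 are transcription factors of the intestinal epithelium, JUND is a subunit of AP-1, MYC promotes cell growth, REST silences neuronal genes outside neurons and RFX2 acts in ciliated cells.

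The siRAD21 SMC3 library was shallower. It held 9103494 tags after removal of repeated positions against 17138940 in the control, a ratio of 0.531, and its IgG library held 4101535 against 8916252, a ratio of 0.460. Of all tags, the repeated share was 0.37 under siRAD21 and 0.24 in the control. At an FDR under 5%, 33726 control and 3829 siRAD21 SMC3 peaks were listed. Depth therefore moves with the siRNA, and its part in the loss of peaks and the part of RAD21 siRNA cannot be told apart. Peaks of RAD21 itself fell from 36204 to 19752, at a depth ratio of 0.615.

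A control peak that shares 1 bp or more with a siRAD21 SMC3 peak is called kept, and any other control peak lost. A siRAD21 peak with no such control peak is called new. By this rule 11014 control peaks were kept (28.4%) and 27785 were lost (71.6%). New peaks numbered 1465, or 11.7% of the siRAD21 list. Only 11 kept peaks overlapped their partner by under 100 bp, and 435 lost peaks had a siRAD21 SMC3 peak within 1000 bp without touching it. Few peaks were therefore near the boundary of the rule, but the shares depended on which peaks entered. Among peaks at an FDR under 5% in both lists 11.2% of the control peaks were kept and 1.51% of the siRAD21 peaks were new, and with a score of at least 100 in both, 17.7% and 2.97%. With the strongest 12548 of each list, 64.4% were kept and 35.0% were new, and with at least 50% of each peak covered, 25.5% and 21.3%.

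Kept sites were the tall and wide ones of the control list. The median kept peak held 136 tags (quartiles 93 to 198) over 1681 bp, and the median lost peak held 51 tags (33 to 81) over 1345 bp. The score for significance, −10 × log10 p, had a median of 594 in kept and 119 in lost peaks, and the fold enrichment over IgG 23.5 and 9.67. The tag distributions overlapped little. Of the lost peaks, 2085 (7.50%) reached the kept median, and 501 kept peaks (4.55%) lay at or below the lost median. Summits sat at the middle of the peak in both classes, at a median of 50.0% of its width.

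The kept share climbed through every class of p and of tags. It went from 3.96% of 12212 peaks with a score of 50 to 100, to 10.7%, 29.9% and 56.6%, and to 84.7% (95% interval 83.6 to 85.8) of 4486 peaks at 800 and above. By tags, 20 of 2970 control peaks with fewer than 25 tags were kept (0.673%), and 258 of 279 with at least 400 (92.5%). Width showed a shallower course, with 3.07% kept under 1000 bp, 44.6% between 1500 and 2000 bp, and 56.0% at 5000 bp and above. New peaks crowded at the opposite end of their own list: 1366 of 1465 had a score under 100 (93.2%), as did 57.1% of the siRAD21 peaks that overlapped a control peak.

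**Figure D1:**
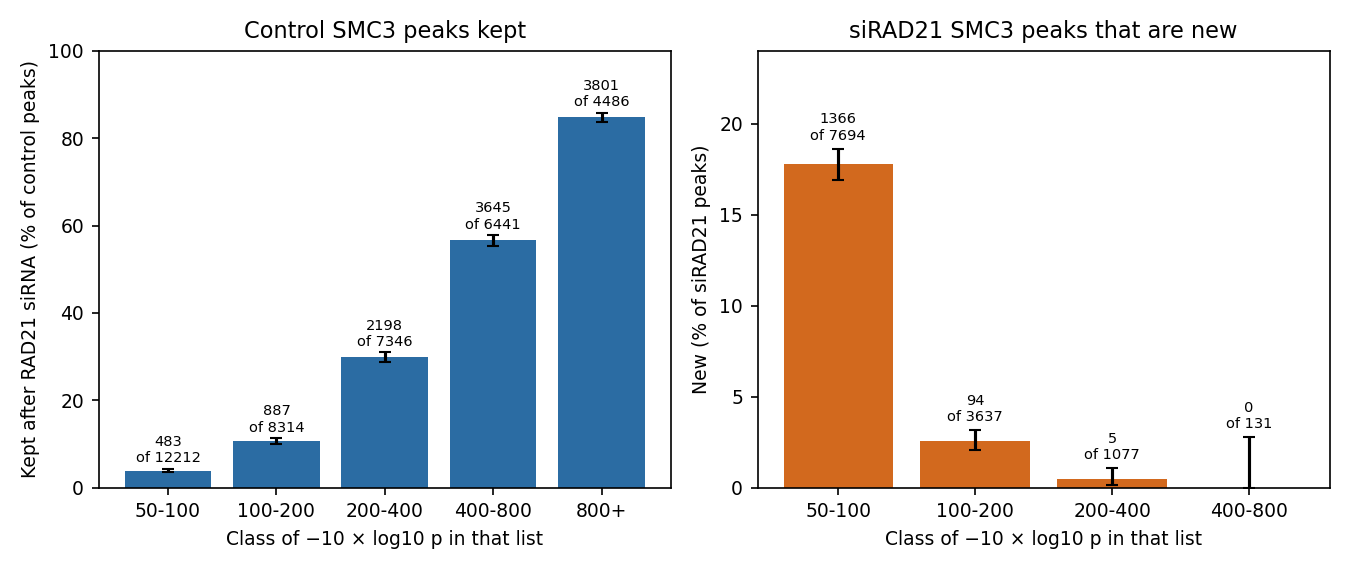
Left, the share of control SMC3 peaks that were kept, and right, the share of siRAD21 SMC3 peaks that were new, by class of −10 × log10 p in the list the peaks belong to; bars are percentages, whiskers exact 95% intervals for counting error, numbers the peaks. The kept share climbs from 3.96% to 84.7%, and the new share falls from 17.8% to 0 of 131 peaks; the siRAD21 class at 800 and above (9 peaks, none new) is not drawn.

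The depth of the siRAD21 library was set against the lost peaks by multiplying their tags by 0.531, a comparison added after the values were seen. The median lost peak would then hold 27.1 tags. Of the lost peaks, 95.2% would reach 11 tags, the fewest of any peak in the siRAD21 list, and 54.6% would reach 25, its median. This sets tags beside tags only. A call also depends on the local background and on IgG depth, whose part was not tested.

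At kept sites SMC3 held fewer tags per 1000000 filtered tags after RAD21 siRNA in 10893 of 11014 pairs (98.9%). The median ratio of siRAD21 to control was 0.378, with quartiles of 0.303 and 0.473, and 79.5% of the pairs lay below 0.5. The siRAD21 peak was also narrower in 91.7% of pairs, at a median width ratio of 0.744, and lay wholly inside the control peak in 70.3%. Tags were counted over each peak's own width. Per kilobase of width the median ratio was 0.523, so that part of the difference in tags went with width.

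Within kept pairs the SMC3 summits lay close together. A pair exists only where the peaks overlap, so the rule itself partly sets this closeness. Signal that moved farther would be counted as lost or new. The summits of a pair were 46 bp apart at the median, 8260 of 11014 lay within 100 bp and 95.2% within 250 bp, and the control summit lay inside the siRAD21 peak in 98.7%. The shift had no preferred direction along the chromosome, with 5515 siRAD21 summits at the higher and 5418 at the lower coordinate. Pairs with summits over 1000 bp apart numbered 161. Splitting and merging were rare: 97 control peaks were overlapped by several siRAD21 peaks and 31 siRAD21 peaks by several control peaks.

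**Figure D2:**
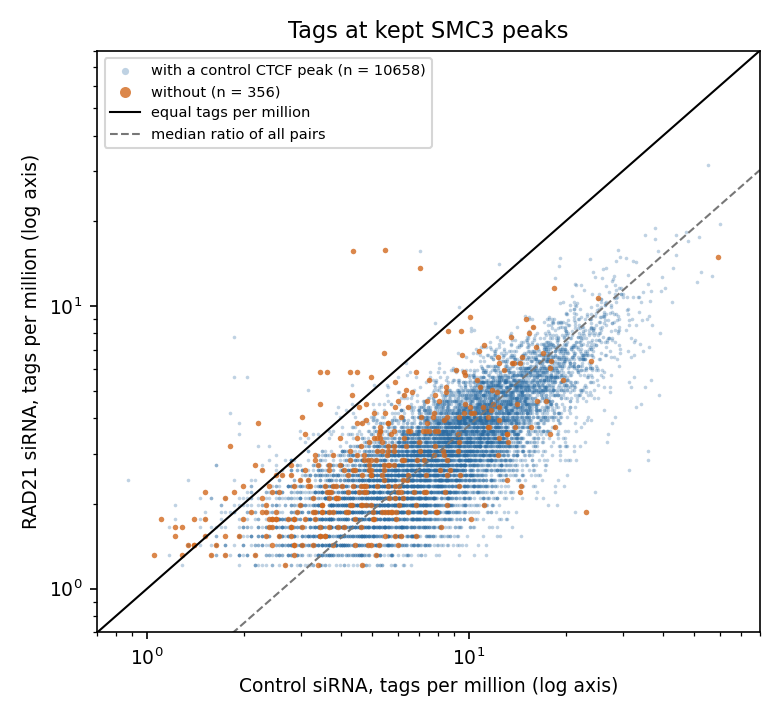
Tags per 1000000 filtered tags at the 11014 kept SMC3 peaks, control siRNA against RAD21 siRNA, both axes logarithmic; each point is a pair, orange where no control CTCF peak overlapped (356 pairs). Nearly all points (98.9%) lie below the solid line of equality, along the dashed line at the median ratio of 0.378. The orange points sit higher, at a median of 0.535, and 176 of them had a control score of 50 to 100. Over all pairs that score class had a median of 0.617.

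The ratio was lowest at the strongest sites. Its median was 0.617 in pairs with a control score of 50 to 100 and 0.325 at 800 and above. A pair exists only where both lists hold a peak, and the lowest siRAD21 peak has 11 tags, so weak control peaks enter only with a high ratio. Pairs with a CTCF peak had a median ratio of 0.377 and summits 45 bp apart. The 356 pairs without one had 0.535 and 138.5 bp. Of these, 176 had a control score of 50 to 100 and 94 one of 100 to 200. Over all pairs, those classes had median ratios of 0.617 and 0.529 and summits 129 and 68 bp apart. The contrast with CTCF was not taken at like strength. With and without H3K4me1 the median ratios were 0.341 and 0.393. Per kilobase of width they were close, at 0.520 and 0.524. The median width ratios were 0.692 and 0.765, so the contrast with H3K4me1 went with peak width. It was not taken at like strength either. For other proteins, the median ratio of tags, not per kilobase, was 0.490 over 16878 kept RAD21 pairs. It was 0.770 over 27760 kept CTCF pairs, each protein with its own pair of libraries.

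Some sites show these ranges. The kept SMC3 peak at chr21:41902856-41908640 (hg18) had 898 control tags and a score of 3100, and the siRAD21 peak inside it had 120 tags and a score of 628, at a ratio of 0.252 and with summits 85 bp apart. RAD21, CTCF and H3K4me1 were found there under both siRNAs, and NIPBL, KLF5 and MYC in the control lists only. The widest control peak, chr14:68314971-68332230, covered 17260 bp with 1014 tags and a score of 71.3. It lay over RAD21, NIPBL, H3K4me1, HNF4A, JUND and MYC peaks without CTCF in the control, and kept a siRAD21 peak of 5757 bp with 136 tags, its summit 5683 bp away. After RAD21 siRNA a CTCF peak was listed there. The former control peak, at 5785 bp, was also wider than most, but its summits were close, and those of the latter were far apart.

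Other broad clusters shrank unequally. At chr17:60972133-60986800 SMC3 went from 971 tags over 14668 bp to 116 tags over 4012 bp, with the summits 3 bp apart. At chr11:65020301-65035592 it went from 949 tags to 288, a ratio of 0.571, and the siRAD21 peak of 10188 bp was the widest of its list. The summits there were 10217 bp apart, and the control summit lay outside the siRAD21 peak. That siRAD21 peak overlapped no RAD21 or CTCF peak under either siRNA, though the control peak did. Among pairs with at least 50 control tags outside chromosome 8, the lowest ratio was 0.0793, at chr11:1802312-1814148. At this site 617 tags over 11837 bp were followed by a peak of 26 tags over 986 bp whose summit was 10 bp away. The next among these pairs was 0.0806, at chr21:39109920-39119933. The highest ratios there were 3.56 at chr14:53490150-53491539 and 2.88 at chr22:44879234-44881525. Their control scores were 50.5 and 55.0, just past the caller's limit, and no control CTCF peak overlapped these control peaks. The siRAD21 peaks were far wider, at 6727 against 1390 bp and 6593 against 2292 bp, and tags were counted over each width. The wider siRAD21 peak on chromosome 14 did overlap a control CTCF peak.

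Some SMC3 peaks with very many tags were lost. The most tags of any lost peak were 1422. Regions were named outside chromosome 8 only. There, with no siRAD21 SMC3 peak within 1000 bp, the most control tags were at chr2:173032403-173039753, with 721 tags over 7351 bp and a score of 1049. RAD21, CTCF and H3K4me1 peaks were found at this site under both siRNAs, and NIPBL, KLF5 and MYC in the control only. The next ones were chr10:63326042-63334873 with 588 tags, chr7:130228663-130237776 with 577 and chr17:36956679-36960344 with 565. Those on chromosomes 10 and 7 were broad, at 8832 and 9114 bp. Their scores were 351 and 325 and their fold enrichments 13.0 and 8.21, below the kept medians of 594 and 23.5. The one on chromosome 17 covered 3666 bp, with a score of 2967 and a fold enrichment of 30.1. At all 4 of these sites RAD21 and CTCF peaks were still listed after RAD21 siRNA.

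Sites that SMC3 shared with both RAD21 and CTCF made up most of the control list. They numbered 27925 (72.0%), with a median of 83 tags, and 37.8% were kept. RAD21 without CTCF was found at 3720 peaks, with a median of 47 tags and 5.94% kept. CTCF without RAD21 was found at 2582 peaks, 4.34% kept, and neither protein at 4572, 2.95% kept. H3K4me1 lay at 67.9% of the SMC3 peaks with RAD21 but no CTCF, and at 24.4% of those with both. These site types were formed after the values were seen.

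Peak strength differed between the types, so they were set side by side within classes of p. At scores of 50 to 100 the kept share was 5.81% at sites with RAD21 and CTCF and 3.12% at those with RAD21 alone. At 100 to 200 it was 12.5% and 5.75%, and at 200 to 400 it was 30.6% (29.5 to 31.7) and 14.8% (10.9 to 19.4, 290 peaks). Up to a score of 400 the intervals did not meet. Above it they overlapped widely: 56.6% and 59.0% (42.1 to 74.4, 39 peaks), then 84.7% and 88.9% (65.3 to 98.6, 18 peaks). SMC3 peaks without RAD21 hardly occurred there, with a single one at 400 or above.

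**Figure D3:**
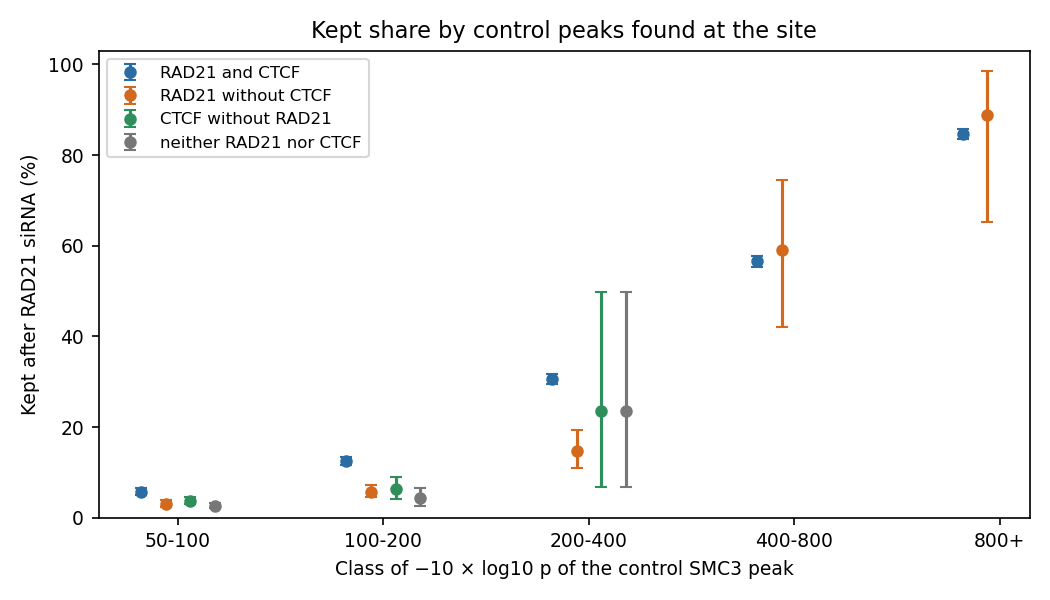
Share of control SMC3 peaks kept after RAD21 siRNA, by class of −10 × log10 p and by which control RAD21 and CTCF peaks overlapped them; points are percentages, whiskers exact 95% intervals for counting error, and classes with fewer than 10 peaks are left out. Below 400 the sites with RAD21 and CTCF lie above those with RAD21 alone (30.6% and 14.8% at 200 to 400); above it the intervals overlap.

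Of each other target, the share of kept and of lost SMC3 peaks that it overlapped was taken from its control list. RAD21 and CTCF were more often at kept peaks: RAD21 was at 97.8% of kept and 75.1% of lost peaks, and CTCF at 96.8% and 71.4%. H3K4me1 and 4 transcription factors were more often at lost peaks over the whole list, with H3K4me1 at 28.6% of kept and 36.3% of lost, MYC at 10.6% and 14.99%, HNF4A at 4.64% and 9.95%, KLF5 at 5.45% and 8.42%, and JUND at 2.51% and 5.36%. Averaged over classes of p, kept minus lost was −2.18 points for H3K4me1, −2.40 for HNF4A and −0.702 for JUND (−1.56 to 0.155), but 1.74 for MYC (0.278 to 3.20) and 1.04 for KLF5 (−0.122 to 2.20), the opposite direction. NIPBL, the loader, was at 11.8% and 14.4%. REST lay at 1.08% and 1.21%, and RFX2 at 1.01% and 0.961%. The NIPBL and JUND control lists held 0 peaks at an FDR under 5%, and the catalogue number given for the H3K4me1 antibody is also known for a general histone H3 antibody.

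The same was asked the other way around, at like strength: the kept share of SMC3 peaks with a target minus that without it, averaged over the classes of p with at least 5 peaks on each side. It was 4.14 percentage points for CTCF over all 5 classes (0.952 to 7.34). For RAD21 it was 4.26 (0.452 to 8.08) over the 3 classes below 400, since 1 peak at 400 or above lacked RAD21, so the values for CTCF and RAD21 are not on the same classes. With and without CTCF, 56.6% and 59.0% were kept at 400 to 800 and 84.7% and 88.9% at 800 and above, the opposite direction to the classes below. The other targets were averaged over all 5 classes. The difference was −6.07 for JUND (−8.11 to −4.03), −4.62 for HNF4A (−6.19 to −3.05) and −3.79 for NIPBL (−4.95 to −2.63). Those 3 differences were negative under all 11 alternatives run for each, as was that of REST. With classes of tags in place of p the 3 were −14.8, −15.3 and −11.8. At scores of 50 to 100 JUND and NIPBL went the other way, with 4.54% kept with JUND and 3.91% without, and 4.16% and 3.91% for NIPBL. HNF4A did not, at 3.13% and 4.08%. For CTCF the difference ran from −2.21 among equal numbers of the strongest peaks to 30.6 with no classes, and for RAD21 from 0.599 to 30.6. H3K4me1 at −1.61 and MYC at −1.54 were small, and changed sign in 2 and 1 of 11 alternatives. KLF5 at −0.567, REST at −3.24 and RFX2 at 2.78 had intervals that held 0, and KLF5 and RFX2 changed sign in 3 and 2 of 11.

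The number of factor peaks at a site followed the same order. Over the control lists of HNF4A, KLF5, JUND, MYC, REST and RFX2, 30.05% of SMC3 peaks with 0 of 6 factors were kept, 27.3% with 1, 17.9% with 2 and 13.8% (12.1 to 15.6) with 3 or more. Averaged over classes of p the shares were 28.5%, 28.6%, 26.2% and 22.9%, so that those with 0 and 1 were alike. Sites with 3 or more held a median of 83 tags against 65 at sites with 0. They were also wider, at 1998 against 1395 bp, and tags were counted over each width. By score their strength did differ, since averaging over p raised their kept share from 13.8% to 22.9%. The count of factors was added after the values were seen.

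After RAD21 siRNA, most kept SMC3 sites still had their partners. RAD21 was listed at 89.8% and CTCF at 91.5% of the kept peaks. At lost SMC3 peaks CTCF was listed at 49.6%, RAD21 at 25.6% and H3K4me1 at 33.5%. No peak of any target was left at 6830 lost peaks (24.6%). At the lost peaks the share with CTCF therefore exceeded that with RAD21, while at the kept peaks both shares were high.

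RAD21 is the nearest comparison, as a subunit of the same ring. Of its own control peaks 46.6% were kept, and of CTCF peaks 63.1%, by the same overlap rule. At the 31645 SMC3 peaks that overlapped RAD21 in the control, both were found after siRNA at 31.0%, RAD21 alone at 21.6%, SMC3 alone at 3.00%, and neither at 44.4%. Sites where RAD21 alone was found numbered 6826 and had a median of 84 control SMC3 tags, between the 145 of sites where both were found and the 49 where neither was. CTCF was listed after siRNA at 81.1% of them. Without CTCF in the control, the 3720 shared sites gave both at 3.71%, RAD21 alone at 9.97%, SMC3 alone at 2.23% and neither at 84.1%. Among an equal number of the strongest control peaks, 12548 each, 64.4% of SMC3 and 72.5% of RAD21 peaks were kept. Both proteins were called against the same IgG libraries, and the SMC3 depth ratio of 0.531 was below the 0.615 of RAD21.

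New SMC3 peaks were at other kinds of site than the kept ones. The rule itself partly sets their RAD21 and CTCF shares. A new peak overlaps no control SMC3 peak, and 72.0% of control SMC3 peaks had both RAD21 and CTCF in the control lists. By the lists made after RAD21 siRNA 973 of 1465 (66.4%) had neither RAD21 nor CTCF, and 84.3% of the siRAD21 peaks that overlapped a control peak had both. In the same lists H3K4me1 lay at 61.0% of the new peaks, JUND at 42.0%, MYC at 30.9%, NIPBL at 26.9%, HNF4A at 19.8% and KLF5 at 6.89%. At the siRAD21 peaks that overlapped a control peak these were 28.6%, 9.99%, 6.23%, 4.69%, 4.31% and 0.993%. CTCF was at 22.5% and RAD21 at 22.3% of the new peaks, against 91.3% and 89.6%.

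**Figure D4:**
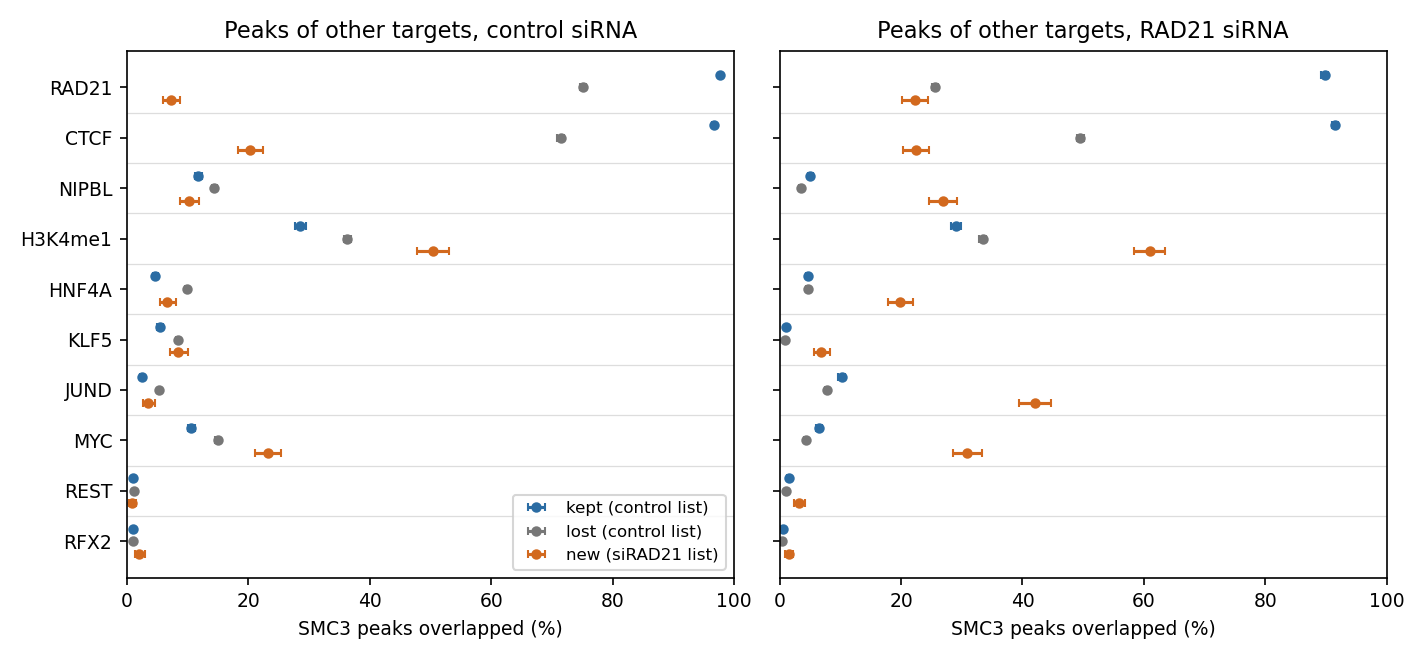
Share of kept and lost control SMC3 peaks and of new siRAD21 SMC3 peaks that a peak of each other target overlapped, with the target's control list on the left and its siRAD21 list on the right; whiskers are exact 95% intervals for counting error. RAD21 and CTCF lie far to the right for kept peaks (97.8% and 96.8% in the control), and on the right panel the new peaks stand apart for H3K4me1 (61.0%), JUND (42.0%), MYC (30.9%) and NIPBL (26.9%).

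Among siRAD21 peaks of like strength the shares also differed, though less for RAD21 and CTCF at stronger peaks. At scores of 50 to 100, new and overlapping peaks had H3K4me1 at 59.2% and 25.9%, JUND at 39.5% and 8.94%, and RAD21 at 19.99% and 83.2%. At 100 to 200 the 94 new peaks had H3K4me1 at 85.1% (76.3 to 91.6), JUND at 77.7%, MYC at 64.9% and NIPBL at 59.6%. RAD21 was then at 55.3% (44.7 to 65.6) and CTCF at 47.9% of the new peaks, against 97.6% and 96.3% of the overlapping ones. The enhancer mark was there already in the control at 50.4% of all new peaks and MYC at 23.2%. JUND was at 3.48%, NIPBL at 10.2% and HNF4A at 6.62%. Lists of the targets differ in length between the siRNAs, and the siRAD21 JUND list was 2.63 times as long as the control list, from a library 2.02 times as deep. The part of this in the share of 42.0% was not tested. The shares also moved with the overlap asked for: with at least 50% of each peak covered, H3K4me1 lay at 7.68% and JUND at 22.5% of new peaks, and at an FDR under 5% in both SMC3 lists at 89.7% and 82.8%. RAD21 was at 44.8% of new peaks with that cover, 56.25% at a score of at least 100 in both lists and 53.4% at that FDR.

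New peaks were small. They had a median of 17 tags over 1066 bp and a fold enrichment of 8.11, against 27 tags, 1279 bp and 10.9 in the overlapping siRAD21 peaks. Only 54 reached an FDR under 5%, and 98.6% of the 3829 siRAD21 peaks at that limit overlapped a control peak. The nearest control SMC3 summit was 15760 bp away at the median, near the 17753 bp between a control summit and the next nearest of its own list, and 101 new peaks had a control SMC3 peak within 1000 bp. No other target was listed after RAD21 siRNA at 435 (29.7%), compared with 185 (1.67%) of the overlapping siRAD21 peaks.

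The new peaks with the most tags were broad and lay on H3K4me1. Outside chromosome 8, and with no control SMC3 peak within 1000 bp, the first 4 were chr17:16282991-16288797 with 148 tags, chr17:77089908-77094304 with 138, chr5:179180744-179186202 with 126 and chr5:177568389-177574834 with 121. Their widths ran from 4397 to 6446 bp. Their fold enrichments, from 5.29 to 5.67, lay below the median of 8.11 of all new peaks, and the last had an FDR of 8.27%. All 4 had H3K4me1 under both siRNAs and JUND after RAD21 siRNA. None had a CTCF peak, and RAD21 was listed at the last alone.

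Within the site, kept SMC3 summits lay closest to CTCF and RAD21. The control summit of a kept peak was 29 bp from the nearest control CTCF summit at the median, and 83.2% were within 100 bp. For lost peaks it was 70 bp and 56.7%. At a score of at least 100 in both lists the medians were 27 bp for kept and 36 bp for lost peaks, and at an FDR under 5% they were 28 and 45 bp. Among peaks that overlapped CTCF the distances were 28 and 38 bp. To the nearest RAD21 summit they were 22 bp for kept and 56 bp for lost peaks. After RAD21 siRNA the kept SMC3 summit was 72 bp from the nearest CTCF summit of that siRNA, and the new summits were 11284 bp from it. The gap between kept and lost peaks was thus smaller where a CTCF peak overlapped.

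Kept shares of SMC3 differed between chromosomes. They ran from 21.95% on chromosome 13 (19.4 to 24.7) and 22.97% on X to 33.3% on 11 and 33.6% on 19 (31.1 to 36.3). The interval lay above the overall 28.4% on 4 of 23 chromosomes, below it on 5, and held it on 14. Averaged over the classes of p, the shares narrowed to 25.2% on 13 and 32.8% on 19. The median control tags of a chromosome went with its kept share (Pearson r = 0.94 over 23 chromosomes, which share 1 library and its depth). They were 55 on 13, 57 on X and 76 on 19.

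RAD21 and CTCF are given side by side with SMC3 on the lowest and the highest chromosome. On chromosome 13 their kept shares were 39.8% for RAD21 and 54.2% for CTCF, and on 19 they were 53.5% and 76.4%. The tag ratio at kept SMC3 sites moved little, from 0.361 on chromosome 9 to 0.403 on X. New peaks made up 18.2% (12.4 to 25.4) of the siRAD21 list on chromosome 21, 18.0% on 19 and 17.4% on 17, and 8.56% on 18. H3K4me1 lay at 43.1% of the control SMC3 peaks on 21, 39.9% on 19, 40.8% on 17 and 26.2% on 18. Other chromosomes did not follow this order: H3K4me1 was at 38.0% on 20 with 9.23% new, 37.4% on 1 with 9.75%, and 24.2% on X with 10.3%. Whether these shares go together was not tested. Outside these chromosomes, Y and unplaced contigs held 27 control peaks, 8 of them kept.

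**Figure D5:**
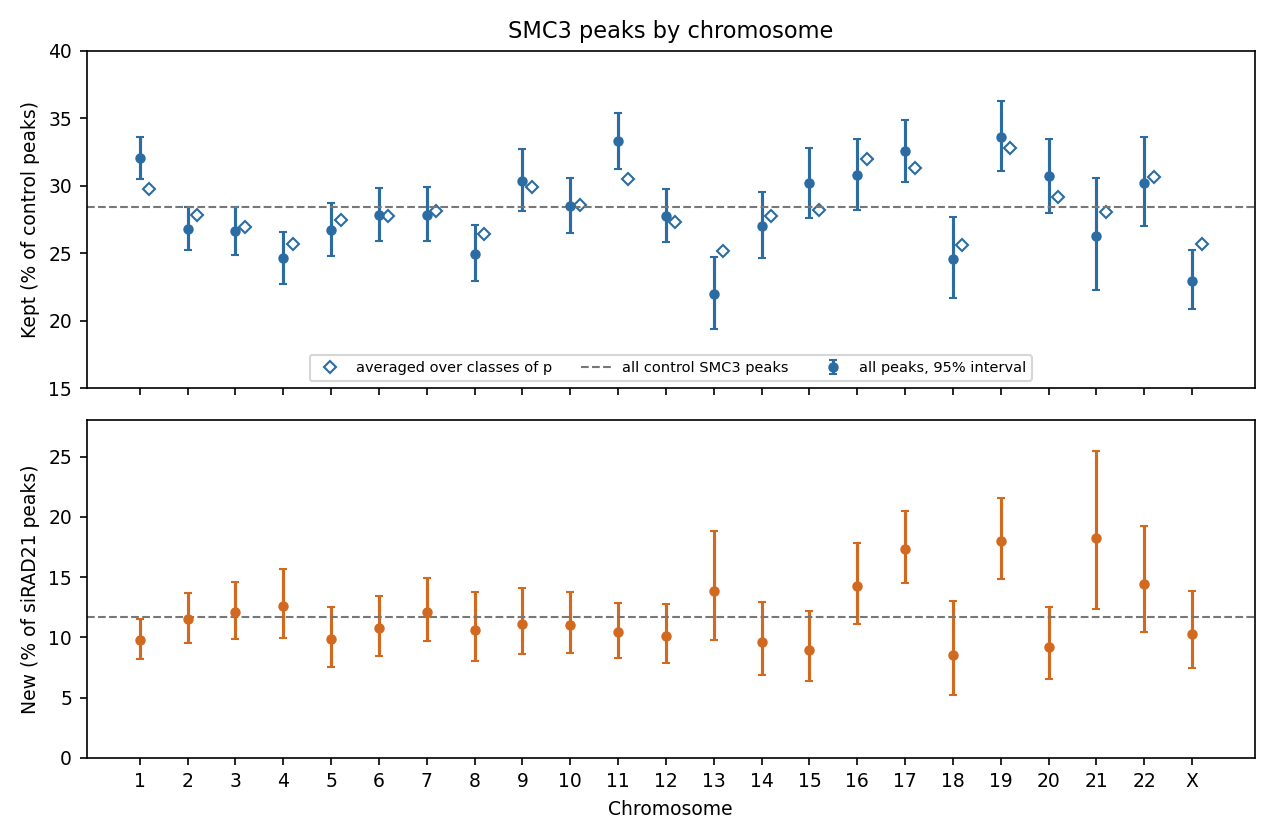
Top, share of control SMC3 peaks kept on each chromosome with exact 95% intervals for counting error (circles), and the share averaged over classes of −10 × log10 p (diamonds); the vertical axis starts at 15%. Bottom, the share of siRAD21 SMC3 peaks that were new; dashed lines are the shares over all peaks, 28.4% and 11.7%. Chromosomes 13 and X lie lowest for kept peaks and 19 highest, and new shares are highest on 17, 19 and 21.

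Along the chromosome, isolated SMC3 peaks were kept least. Of peaks with another control summit within 5 kb 30.7% were kept, and of those over 100 kb from any 21.1% (19.5 to 22.7). Averaged over classes of p these were 28.9% and 26.0%, and isolated peaks were weaker, with a median of 49 tags against 74. The median gap between neighbouring summits was 37770 bp in the control list and 107686 bp in the siRAD21 list. A peak whose neighbour within 20 kb was kept was itself kept in 33.6% of cases, and in 28.5% where the neighbour was lost. With the neighbour 20 to 100 kb away these shares were 31.7% and 27.2%, and over 100 kb away 27.5% and 24.98%. The contrast was therefore not limited to close neighbours, and it was not taken at like strength.

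The longest stretches were looked up after the values were seen. The longest unbroken series of kept peaks held 8, at chr5:148676678-148803419, a stretch of 127 kb in which all 8 had CTCF under both siRNAs and 7 had RAD21 after siRNA. The longest series of lost peaks held 37, at chrX:119874808-125703405, over 5829 kb and with a median of 36 tags. CTCF was listed at 27 of these 37 in the control and at 14 after RAD21 siRNA, and RAD21 at 28 and 3. The former is a dense cluster at CTCF sites and the latter a sparse region of low peaks.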

How the data were processed

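ChIP-seq peak lists of 11 targets in GP5d cells were used, 1 library per target and siRNA. Reads were aligned to hg18 and peaks called with MACS, per the submitters' processing notes (CASAVA 1.4, BWA, MACS 1.4; the file headers give MACS 1.4.0rc2). Per the file headers, peaks were called in each library against its IgG library at a p cutoff of 1e-05, with 1 tag kept per position. The deposited lists give each peak's tag count, a score (−10 × log10 p), the fold enrichment over IgG as a ratio, and a column without a name (10 columns under 9 names). That column was read as the authors' FDR in percent, because its values under 5 number as many as the labels state in 22 of 22 lists. The start, end and summit positions are as deposited.

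From these, kept, lost and new peaks were formed by an overlap of 1 bp. A pair is a control peak and the siRAD21 peak with the longest overlap, and its tags were scaled to 1000000 filtered tags of each library. Shares at like strength were averaged over score classes (50, 100, 200, 400 and 800 as lower edges) with the weights of the whole control list. Shares were computed with Python 3.11.15, numpy 2.4.6 and scipy 1.17.1 and carry exact 95% intervals. The overlap and averaging steps were tested on simulated data. The groups are 1 library each, so there is no test between siRNAs. Regions named are the 4 kept, lost and new peaks with the most tags (lost and new ones with no peak of the other list within 1000 bp), the 2 highest and 2 lowest ratios among pairs with at least 50 control tags, and the 2 widest peaks of each list, none on chromosome 8. The alternatives were other overlap rules, limits on score and FDR, equal numbers of peaks, other classes and other scalings of tags. Gene annotation and sequence of hg18 were not used here. The members and lists were chosen with earlier results of these data known.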

Additional observations from a re-analysis of the deposited data

How the results depend on the processing

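In all, 509 values were recomputed under 14 alternatives, and 17 of them changed sign. Many more moved beyond the interval of the main value. For the headline results, 1 value chosen per planned result, 39 moved, 20 stayed the same and 1 reversed in sign. For the other results 215 moved, 223 stayed the same and 11 reversed. The reversed values are among the 17. Leaving out chromosomes X and Y moved none of 32. No paired analysis was possible because each group has 1 library and the labels carry no replicate numbers. Where a value moved, the cause was not tested, except that stricter rules and limits leave fewer peaks to match by construction. In each setting below, the overlap rule was applied to the other targets too.

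With at least 50% of each peak covered, 25.5% of control peaks were kept and 21.3% of siRAD21 peaks were new, H3K4me1 lay at 7.68% of new peaks, the median lost peak had 53 tags, the pair ratio was 0.391 and the kept share with CTCF exceeded that without by 8.01 points. With summits within 250 bp, 27.1% were kept, 16.2% were new and H3K4me1 lay at 14.0% of these. With a siRAD21 peak within 1000 bp the values were 29.5%, 10.9% and 63.5%. At a score of at least 100 in both lists, 17.7% were kept, 2.97% were new and H3K4me1 lay at 78.5% of these. The median lost peak then had 78 tags, the pair ratio was 0.384, chromosome 19 kept 21.8%, kept and lost summits were 27 and 36 bp from CTCF, and RAD21 alone was found at 24.0% of shared sites. At an FDR under 5% in both lists these values were 11.2%, 1.51%, 89.7%, 68 tags, 0.385, 13.9%, 28 and 45 bp and 28.5%. With that limit on the control list alone, 32.2% were kept and 12.8% were new.

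With equal numbers of the strongest peaks, 64.4% were kept, 35.0% were new, H3K4me1 lay at 42.6% of these, and the difference with CTCF changed sign, to −2.21 points (−11.9 to 7.51). That difference was 30.6 points with no classes and 21.8 with classes of tags, under which chromosome 19 kept 29.9%. The pair ratio was 0.201 with tags as deposited, 0.313 per 1000000 tags before repeats were removed and 0.523 per kilobase of width. The difference with H3K4me1 was 0.228 points at a score of at least 100 and 0.174 at an FDR under 5%, and that with MYC 0.000861 at a score of at least 100. With KLF5 it was 0.1496, 1.09 and 1.27 points with a siRAD21 peak within 1000 bp, at that score and at that FDR, and with RFX2 −0.330 at that FDR and −8.77 with classes of tags. The share of kept minus that of lost peaks with a target in the siRAD21 lists was positive with classes of p. With classes of tags it was −16.4 points for H3K4me1, −2.32 for HNF4A, −1.87 for JUND, −1.0002 for NIPBL, −0.528 for KLF5, −0.467 for MYC and −0.167 for RFX2, and with no classes −4.40 for H3K4me1.

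Depth limits what the losses show: a site without a siRAD21 SMC3 peak was not detected at 9103494 tags, which does not show that SMC3 was absent there. Peaks of 1 library are not replicates, and spread between cultures is unknown.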
